A study of Mus musculus with 2 samples.

Results

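The 10 genes described here are the interferon-gamma induced GTPases Gbp2, Gbp3, Gbp4, Gbp5, Gbp6, Gbp7, Irgm1, Igtp and Iigp1, together with the transcription factor gene Irf1. They were taken by symbol from the 32285 genes of the deposited feature tables, and all 10 were found in both libraries. MC38 cells, a mouse colon cancer line, had been grown under the skin of both flanks of C57BL/6 mice (male and 6 to 8 weeks old, per the study's methods). The right tumor was destroyed by microwave ablation (MWA) at about 300 mm3, and the CD45+ cells of the left, non-ablated tumor were sorted 8 days later and profiled with 10x Genomics 3′ chemistry, version 3.1. Both groups were ablated. The study describes an isotype control antibody for the MWA group of its tumor growth experiments, without restating it for the sequenced mice. The MWA plus TIGIT group received an antibody that blocks TIGIT, a coinhibitory receptor of T and NK cells. This antibody was given from 1 day after MWA and then every 3 days. Each group was 1 library, the number of mice behind a library was not given in the sources used here, and no untreated tumor was profiled. With 1 library per group no test of treatment was possible, so ratios between the libraries have no replicate check, and every interval below covers counting error only.

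Interferon-gamma, made by activated T and NK cells, binds a receptor on the cell surface, and many of its target promoters carry GAS elements. IRF1 is itself made in response to interferon-gamma and binds ISRE elements, which promoters that respond to type I interferon also carry. The guanylate-binding proteins (GBPs) and the immunity-related GTPases (IRGs; here Irgm1, Igtp, also called Irgm3, and Iigp1, also called Irga6) are among the strongest interferon-gamma targets in mouse cells, where they act on the vacuoles of intracellular microbes and, for several GBPs, on inflammasome activation. In tumors their transcripts are commonly read as a trace of interferon acting on a cell.

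The promoters are shown because ISRE or GAS letters, or both, lay close to a transcript start in each member with a sequence. The 190 bases from 180 before to 10 after the RefSeq start (build GRCm38.p6) are printed 5′ to 3′ on the gene's own strand, with ISRE letters (GAAANNGAAA, or TTTCNNTTTC on the other strand) and GAS letters (TTCNNNGAA, which reads the same on both strands) in capitals. The table used here held promoters for 7 of the 10 members, and Gbp4, Gbp6 and Iigp1 had no entry.
Gbp2 (chr3:142620483-142620672, plus strand): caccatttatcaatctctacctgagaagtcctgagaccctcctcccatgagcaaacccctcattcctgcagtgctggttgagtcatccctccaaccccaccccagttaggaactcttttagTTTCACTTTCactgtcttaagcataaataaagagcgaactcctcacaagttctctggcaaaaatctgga
Gbp3 (chr3:142559864-142560053, plus strand): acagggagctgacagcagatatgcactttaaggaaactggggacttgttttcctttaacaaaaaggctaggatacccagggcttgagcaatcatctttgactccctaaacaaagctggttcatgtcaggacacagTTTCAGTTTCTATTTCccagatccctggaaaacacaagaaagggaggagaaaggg
Gbp5 (chr3:142496754-142496943, plus strand): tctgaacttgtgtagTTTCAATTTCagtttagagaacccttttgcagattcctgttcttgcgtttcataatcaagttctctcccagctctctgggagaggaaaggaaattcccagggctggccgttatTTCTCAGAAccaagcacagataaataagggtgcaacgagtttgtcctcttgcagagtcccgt
Gbp7 (chr3:142530156-142530345, plus strand): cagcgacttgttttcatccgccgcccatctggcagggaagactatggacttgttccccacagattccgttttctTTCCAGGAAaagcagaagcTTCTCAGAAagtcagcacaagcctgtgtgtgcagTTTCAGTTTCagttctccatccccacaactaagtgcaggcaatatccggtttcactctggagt
Irgm1 (chr11:48871411-48871600, minus strand): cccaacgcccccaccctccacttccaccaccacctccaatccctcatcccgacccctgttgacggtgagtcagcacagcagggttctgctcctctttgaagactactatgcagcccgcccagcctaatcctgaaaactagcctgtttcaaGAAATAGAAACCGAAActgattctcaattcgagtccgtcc
Igtp (chr11:58199376-58199565, plus strand): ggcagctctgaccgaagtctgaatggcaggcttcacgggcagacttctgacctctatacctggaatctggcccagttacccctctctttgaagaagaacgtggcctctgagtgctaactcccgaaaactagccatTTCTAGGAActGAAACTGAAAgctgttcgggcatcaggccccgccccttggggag
Irf1 (chr11:53769834-53770023, plus strand): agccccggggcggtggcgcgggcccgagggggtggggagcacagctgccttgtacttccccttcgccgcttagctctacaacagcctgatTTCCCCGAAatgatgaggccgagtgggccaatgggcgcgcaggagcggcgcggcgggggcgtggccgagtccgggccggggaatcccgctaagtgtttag

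Within the window of 250 bases before to 50 after the start, 6 of the 7 members held an ISRE, and Irf1 was the one without it. The same letters occurred in 3.44% of the 32851 promoters of the table, and in the 100 bases before the start in 0.983%. The ISRE began 59 bases before the start in Gbp2, 53 in Gbp7, 34 in Igtp and 165 in Gbp5. Gbp3 and Irgm1 each carried a pair of overlapping ISRE matches, beginning 45 and 39 bases before the start in Gbp3 and 30 and 24 in Irgm1, so that the capitals run on. GAS letters were found in 4 members, against 8.30% of all promoters. Gbp5 and Gbp7 shared the letters TTCTCAGAA, 52 and 87 bases before the start, and each held another GAS match, at 245 bases in Gbp5 (outside the printed stretch) and at 106 bases in Gbp7. In Igtp the GAS match at 45 bases ended just before the ISRE, and in Irf1 a single GAS match lay 90 bases before the start. Gbp5, Gbp7 and Igtp held both elements, which 0.454% of all promoters did. Gbp3 and Irf1 have another RefSeq start each, and those windows held neither set of letters. These are matches of letters, not measured binding.

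**Figure D1:**
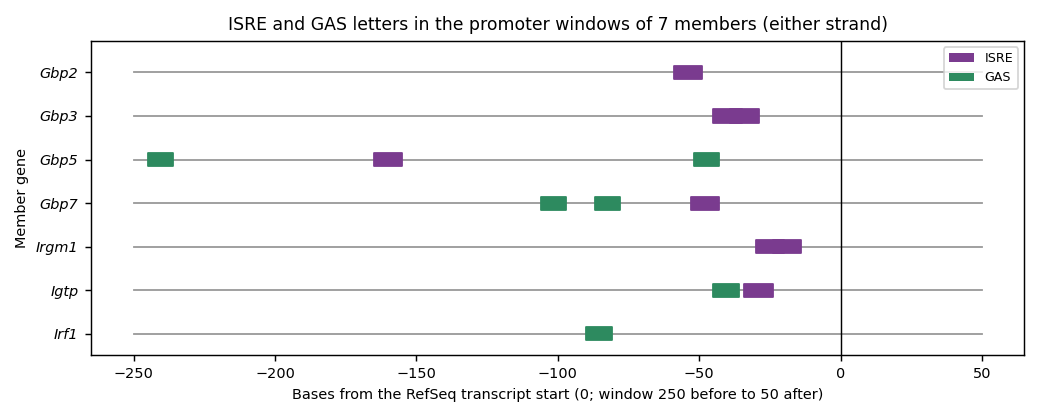
Positions of ISRE and GAS letters in the promoter windows of the 7 members with a promoter sequence. The horizontal axis gives bases from the RefSeq transcript start and each bar is 1 match on either strand. The ISRE bars of Gbp2, Gbp3, Gbp7, Irgm1 and Igtp lie within 60 bases of the start, that of Gbp5 lies 165 bases before it, and Irf1 has a GAS bar alone.

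In the GENCODE annotation of build GRCm38, Gbp2 (chr3:142620602-142638008), Gbp3 (chr3:142560026-142573209), Gbp5 (chr3:142493978-142522344) and Gbp7 (chr3:142530342-142550149) form a cluster on the plus strand of chromosome 3, and Gbp4 (chr5:105115767-105139586) and Gbp6 (chr5:105270702-105293698) lie on the minus strand of chromosome 5. Irgm1 (chr11:48861968-48871683, minus strand), Igtp (chr11:58199556-58207591, plus strand) and Irf1 (chr11:53770014-53778374, plus strand) are on chromosome 11, and Iigp1 (chr18:60376027-60392634, plus strand) is on chromosome 18. All are protein-coding. Since 3′ chemistry counts transcript ends, the last 500 bases of each gene's transcripts were compared with the other counted genes in windows of 50 bases. For Gbp6 42.3% of the windows had an exact copy elsewhere, 39.0% in Gbp10, so its counts are uncertain with respect to Gbp10. Gbp10 itself was at 11.4 CPM or less in every type, a level that is uncertain with respect to Gbp6. How reads from the common bases were counted was not tested. For Gbp4 the share was 10.7%, and its gene overlaps Gbp8 and Gbp9 on the same strand. Igtp overlaps Irgm2 on the same strand. The other members shared 3.55% or less.

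The MWA library held 66152465 UMIs in 10217 barcodes and the MWA plus TIGIT library 78751205 UMIs in 10190 barcodes, of which 9231 and 9127 cells were kept. Cells were clustered without the members and without the interferon lists, and named from marker genes: CD8 T-like (1392 cells in the MWA and 1539 in the MWA plus TIGIT library, the order used throughout), CD4 T-like (947 and 774), Treg-like (760 and 634), gamma-delta T-like (337 and 268), NK-like (168 and 117), cycling T-like (573 and 556), neutrophil-like (95 and 86), monocyte-like (490 and 551), tumor-associated macrophage (TAM)-like (2682 and 2841), cycling TAM-like (769 and 761) and DC-like (136 and 94). The sorted cells held the RNA of leukocytes, while markers of tumor epithelium summed to 39.0 CPM or less in every type but NK-like (47.0 and 43.7 CPM) and DC-like cells (73.9 and 117 CPM). Levels are counts per 1000000 UMIs (CPM), with the UMIs of a gene and of all genes summed over a type's cells. Levels are compared for 1 gene across types, not between genes. Median UMIs per cell differed between the libraries in myeloid cells, at 8216 and 10203 in TAM-like cells, and less in CD8 T-like cells, at 3631 and 3509. In all, 37 barcodes occurred in both libraries, and leaving these cells out changed the count of members past 1.5-fold from 3 to 2 in monocyte-like cells and from 0 to 1 in neutrophil-like cells, and in no other type described below.

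Treg-like cells held the highest summed level of the 10 members in both libraries, at 1161 CPM without anti-TIGIT (95% Poisson interval, 1114 to 1210.2) and 1239 CPM with it (1190.1 to 1289.9). CD4 T-like cells followed at 586 and 618 CPM and CD8 T-like cells at 522 and 579 CPM, with a log2 ratio of Treg-like over CD8 T-like cells of 1.15 and 1.1. Cycling T-like cells were at 490 and 519 CPM and gamma-delta T-like cells at 401 and 528 CPM. Among myeloid types, neutrophil-like cells stood highest at 484 and 578 CPM, from 47 and 64 UMIs. TAM-like cells were at 375 and 385 CPM, monocyte-like cells at 331 and 401 CPM, cycling TAM-like cells at 294 and 378 CPM and DC-like cells at 272 and 301 CPM. NK-like cells, at 337 and 313 CPM, were below TAM-like cells in both libraries. The Treg-like intervals overlapped those of no other type in either library.

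The GBPs split into genes that were higher in T-like than in myeloid cells and a gene that was mainly myeloid. Gbp4 stood at 100.2 and 124.7 CPM in Treg-like cells, 81.8 and 93.0 in CD4 T-like cells and 79.1 and 89.8 in CD8 T-like cells, against 9.45 and 9.25 CPM in TAM-like cells and 4.58 and 11.6 in monocyte-like cells. TAM-like cells held 0.119 (0.101 to 0.141) and 0.103 (0.0889 to 0.119) times the CD8 T-like level, and no Gbp4 UMI was found in the neutrophil-like cells, where a count of 0 allows up to 30.9 and 27.1 CPM. Gbp6 was likewise high in T-like cells, at 111.1 and 107.1 CPM in Treg-like cells, 59.8 and 52.3 in CD8 T-like cells and 14.0 and 14.4 in TAM-like cells, with 1 and 2 UMIs in all DC-like cells. In NK-like cells Gbp6 was at 9.39 and 13.0 CPM, from 8 UMIs in each library, which was below the TAM-like level. Gbp7, a GBP found next to Gbp3 and Gbp5 in the genome, was highest in Treg-like cells at 199.9 and 231.2 CPM, stood at 89.2 and 122.8 in CD8 T-like cells, and was lower in TAM-like cells at 51.1 and 53.9 CPM. Gbp2 ran the other way. It was at 108.8 and 120.9 CPM in monocyte-like cells and 88.4 and 91.4 CPM in TAM-like cells, against 50.6 and 57.4 in Treg-like cells, 32.4 and 44.0 in CD8 T-like cells and 9.39 and 9.72 in NK-like cells. TAM-like cells held 2.73 (2.34 to 3.19) and 2.08 (1.83 to 2.36) times the Gbp2 level of CD8 T-like cells. The neutrophil-like cells were at 154 (86.5 to 254.8) and 226 (146.0 to 333.1) CPM, from 15 and 25 UMIs. The interval of the MWA library held the monocyte-like and TAM-like levels, and that of the MWA plus TIGIT library lay above them. Gbp3 and Gbp5 were high in Treg-like cells and low in other T cells. Gbp3 was at 55.3 and 67.8 CPM in Treg-like cells but 12.0 and 13.3 in CD8 T-like cells, with monocyte-like cells between them at 35.1 and 36.8. Gbp5 was at 43.9 and 39.8 CPM in Treg-like cells and 6.58 and 12.2 in CD4 T-like cells. TAM-like cells were at 13.8 and 13.5 CPM, within the interval of the CD8 T-like level in both libraries.

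Among the IRGs, Igtp was highest in T-like cells, at 142.6 and 151.0 CPM in Treg-like cells, 61.1 and 79.4 in CD4 T-like cells, 50.1 and 49.4 in CD8 T-like cells and 21.8 and 22.0 in TAM-like cells. NK-like cells were at 12.9 and 25.9 CPM for Igtp, from 11 and 16 UMIs. Iigp1 had an order of its own. It was highest in Treg-like cells at 124.5 and 138.6 CPM and next in TAM-like cells at 69.1 and 71.7 CPM, while CD8 T-like cells held 18.1 and 12.5 CPM and monocyte-like cells 6.49 and 9.83 CPM. The TAM-like level of Iigp1 was 10.7 (6.63 to 18.3) and 7.30 (5.32 to 10.3) times the monocyte-like level, whereas no other member differed more than 2.06-fold between these types in either library. Irgm1, which regulates the other IRGs on host membranes, varied least, between 27.0 and 43.2 CPM over the types other than neutrophil-like cells without anti-TIGIT and between 13.0 and 53.3 CPM with it, the lowest from 8 UMIs in NK-like cells. Irf1 was highest in Treg-like cells at 293 and 272 CPM, followed by CD4 T-like cells at 172.6 and 161.9 and CD8 T-like cells at 135 and 131 CPM, and TAM-like cells were near the bottom of the order at 50.1 and 50.9 CPM. For Irf1 the CD8 T-like interval overlapped those of the gamma-delta T-like and cycling T-like cells in both libraries, and the TAM-like, cycling TAM-like and monocyte-like intervals overlapped in the MWA library.

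**Figure D2:**
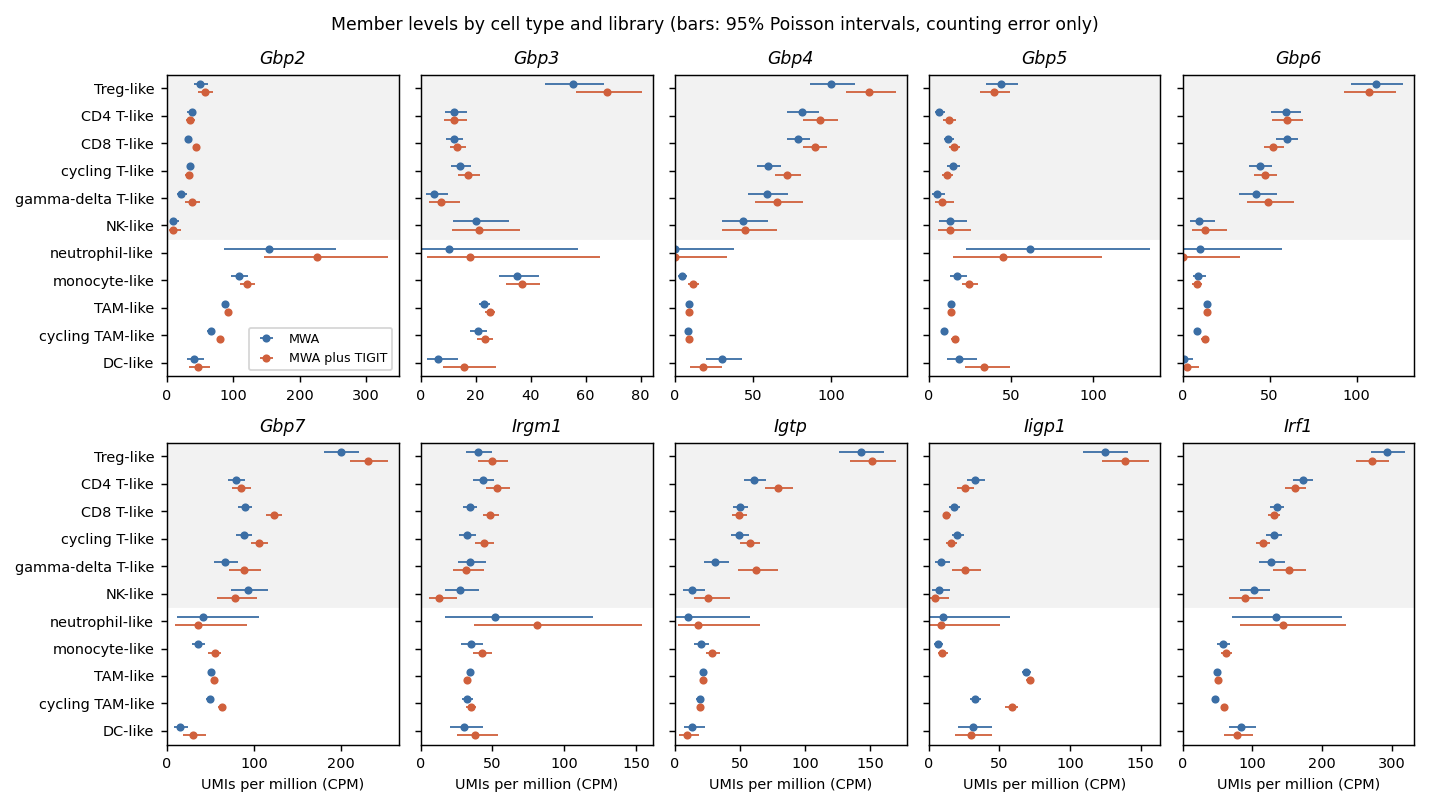
Levels of the 10 members by cell type in the MWA (blue) and MWA plus TIGIT (orange) libraries. The horizontal axes give CPM, each with its own range, points are summed levels and bars are 95% Poisson intervals for counting error only. Lymphoid types are shaded, and Treg-like cells sit highest for Gbp4, Gbp6, Gbp7, Igtp, Iigp1 and Irf1, while Gbp2 is higher in monocyte-like and TAM-like than in CD8 T-like cells.

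Transcripts of other cell types were present at low levels in each type. The 8 TAM markers summed to 798 and 796 CPM in CD8 T-like cells and 1041 and 908 CPM in Treg-like cells, against 32168 and 38355 CPM in TAM-like cells. The 6 T cell markers summed to 29.6 and 18.9 CPM in TAM-like cells against 5415 and 5818 CPM in CD8 T-like cells, and none of either list was at 0 in these types. For Iigp1, a member low in CD8 T-like cells, the TAM-like level was 3.83 (3.13 to 4.72) and 5.74 (4.57 to 7.30) times the CD8 T-like level. The part of carried-over RNA in the lower levels was not tested.

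The order of the members did not follow that of the ligand. Ifng, which encodes interferon-gamma, was at 231 and 268 CPM in CD8 T-like cells, 195 and 222 in CD4 T-like cells and 121 and 146 in NK-like cells, but at 19.1 and 17.6 CPM in Treg-like cells and 1.82 and 1.21 CPM in TAM-like cells. Treg-like cells thus combined the highest level of most members with a CD4 T-like to Treg-like ratio for Ifng of 10.2 (7.31 to 14.6) and 12.6 (8.94 to 18.4). They were also highest for Ifngr1, the ligand-binding receptor chain, at 713 and 877 CPM, and for Socs1, the feedback inhibitor of the receptor kinases, at 244 and 235 CPM. Ifngr2, the other receptor chain, was myeloid, at 123 and 132 CPM in TAM-like cells against 6.02 and 7.47 in CD8 T-like cells and 16.0 and 8.28 in Treg-like cells. Cxcl9, a chemokine gene induced by interferon-gamma, was at 323 and 425 CPM in TAM-like cells and 8.85 and 11.5 CPM in CD8 T-like cells, an order that Gbp2 shared and Gbp4 did not.

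Likeness of pattern was measured as Pearson's r, over the 22 values of 11 types in 2 libraries, between each of 4928 genes and the summed members on a log2(CPM + 1) scale, which describes these values and has no p since the points share libraries. The closest genes outside the lists were Ttc39c (0.92), Vps54 (0.90), Neb (0.88), Agfg1 (0.88) and Ppp1r18 (0.88), and Ifi47, another interferon-inducible GTPase, had the highest value among the genes of the interferon lists (0.86). Against the sum of the other 9, Igtp had the highest r at 0.80 and Irf1 0.73, whereas Gbp2 had -0.17.

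Within CD8 T-like and TAM-like cells, clusters differed several-fold in the summed members. Since the clusters were drawn from these cells the values are a description, although the members took no part in the clustering. An interferon-led CD8 T-like cluster, named for type I interferon genes among its leading genes (97 and 109 cells), held 1918 and 1979 CPM, effector CD8 T-like cells held 652 and 644 CPM, and exhausted CD8 T-like cells held 278 and 258 CPM. In the interferon-led cluster Iigp1 was at 156 and 118 CPM, which was 17.2 (11.4 to 25.9) and 24.3 (14.9 to 40.1) times the other CD8 T-like cells, and Gbp2 was 7.63 (5.52 to 10.5) and 6.89 (5.29 to 8.92) times higher. Irf1 differed least, at 1.94 (1.53 to 2.43) and 1.36 (1.05 to 1.73) times. In exhausted cells the 3 IRGs together were at 0.207 (0.154 to 0.272) and 0.185 (0.129 to 0.258) times the level of the other CD8 T-like cells, although Ifng was 1.88 (1.68 to 2.10) and 1.91 (1.72 to 2.11) times higher there. The other CD8 T-like cells included the interferon-led cluster, where the 3 IRGs were at 516 and 512 CPM, and ratios without it were not computed.

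TAM-like clusters had a similar range. The interferon-led TAM-like cluster (82 and 88 cells) held 1603 and 1832 CPM, the cluster led by Gpr34 and Selenop (879 and 864 cells) held 511 and 465 CPM, the cluster led by Olr1 and Gm16104 349 and 352 CPM, the cluster led by Arg1 and Zmynd15 212 and 236 CPM, and the cluster led by the heat shock genes Hspb1 and Hspa1b (669 and 746 cells) 151 and 203 CPM. In the interferon-led cluster Gbp5 was 9.05 (6.80 to 11.9) and 10.8 (8.56 to 13.5) times and Iigp1 7.25 (6.35 to 8.26) and 7.08 (6.34 to 7.89) times the level of the other TAM-like cells. Irf1 again differed least, at 1.59 (1.18 to 2.10) and 1.33 (1.02 to 1.71) times. In the Gpr34 and Selenop cluster the members stood at 1.70 (1.63 to 1.78) and 1.35 (1.30 to 1.40) times the other TAM-like cells and Cxcl9 at 2.56 (2.44 to 2.68) and 3.18 (3.07 to 3.29) times, while the 22 type I interferon genes stood at 0.628 (0.607 to 0.650) and 0.634 (0.616 to 0.653) times. The members and Cxcl9 were thus on the other side of 1 from the type I interferon genes in this cluster, and the Hspb1 and Hspa1b cluster was the reverse, with the members at 0.350 and 0.472 times and the type I interferon genes at 1.07 (1.03 to 1.11) and 1.26 (1.23 to 1.30) times. For both clusters the other TAM-like cells included the interferon-led cluster, which was named for its type I interferon genes. Ratios to TAM-like cells without the interferon-led cluster were not computed.

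**Figure D3:**
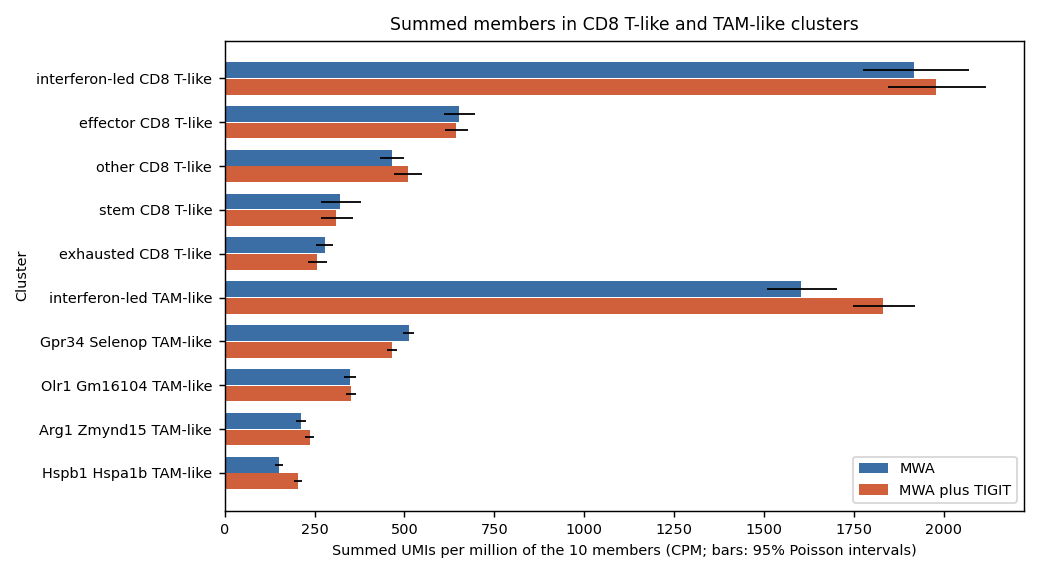
Summed level of the 10 members in the CD8 T-like and TAM-like clusters of both libraries. The horizontal axis gives CPM from 0, bars are MWA (blue) and MWA plus TIGIT (orange), and black lines are 95% Poisson intervals for counting error only. The interferon-led clusters reach 1603 to 1979 CPM, and the lowest within each type are the exhausted CD8 T-like cluster at 278 and 258 CPM and the Hspb1 and Hspa1b TAM-like cluster at 151 and 203 CPM.

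Cells were thinned to 1000 UMIs each, with the mean taken over 100 draws, to compare the members cell by cell at 1 depth (cells with fewer UMIs were left out, 6 and 5 of the TAM-like, 19 and 22 of the CD8 T-like and 30 and 19 of the Treg-like cells). No member was detected in 39.6% and 38.0% of Treg-like, 62.8% and 60.7% of CD8 T-like and 77.1% and 76.2% of TAM-like cells, and 3 or more members in 8.78% and 10.6%, 3.05% and 3.19% and 2.13% and 1.94%. Without thinning, at least 1 member UMI was found in 81.8% and 85.8% of Treg-like, 71.6% and 74.7% of CD8 T-like and 65.1% and 71.1% of TAM-like cells. No type that should lack these genes was at hand to give the background of free RNA. In the interferon-led clusters 3 or more members were found in 22.8% and 21.6% of CD8 T-like and 17.2% and 19.3% of TAM-like cells.

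Among TAM-like cells, the members were higher in cells with a Cxcl9 UMI (10.0% and 12.3% of thinned cells) than in cells without, 3.47 (3.01 to 3.98) and 2.87 (2.50 to 3.27) times for the 10 summed. Gbp2 and Gbp5 differed most, 5.69 (4.36 to 7.41) and 4.65 (3.59 to 6.01) and 5.43 (2.61 to 10.9) and 4.69 (2.24 to 9.52) times, Iigp1 3.98 (2.87 to 5.47) and 3.04 (2.21 to 4.15) times, and the intervals of Irgm1 and Igtp in the MWA plus TIGIT library and of Irf1 in the MWA library reached below 1-fold. Split by a UMI of Isg15, a type I interferon gene (6.60% and 7.07% of cells), the ratio of the 10 summed was 2.82 (2.38 to 3.33) and 2.39 (2.02 to 2.82). With Isg15, Irgm1 was 3.58 (2.04 to 5.99) and 2.75 (1.49 to 4.77) times higher, more than its 1.92 (1.05 to 3.29) and 1.71 (0.952 to 2.90) times with Cxcl9, although the intervals overlapped. Irf1 was 1.51 (0.777 to 2.68) and 1.18 (0.587 to 2.13) times, intervals that include 1. In CD8 T-like cells a UMI of Isg15 (9.48% and 9.35% of cells) went with a ratio of 2.64 (2.22 to 3.14) and 2.73 (2.32 to 3.2) for the 10 members, 3.98 (2.38 to 6.46) and 3.94 (2.31 to 6.52) for Gbp6 and 1.67 (1.11 to 2.45) and 1.26 (0.795 to 1.92) for Irf1. A UMI of Ifng in the CD8 T-like cell itself went with 1.16 (0.961 to 1.38) and 1.04 (0.879 to 1.23), intervals that include 1 in both libraries.

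**Figure D4:**
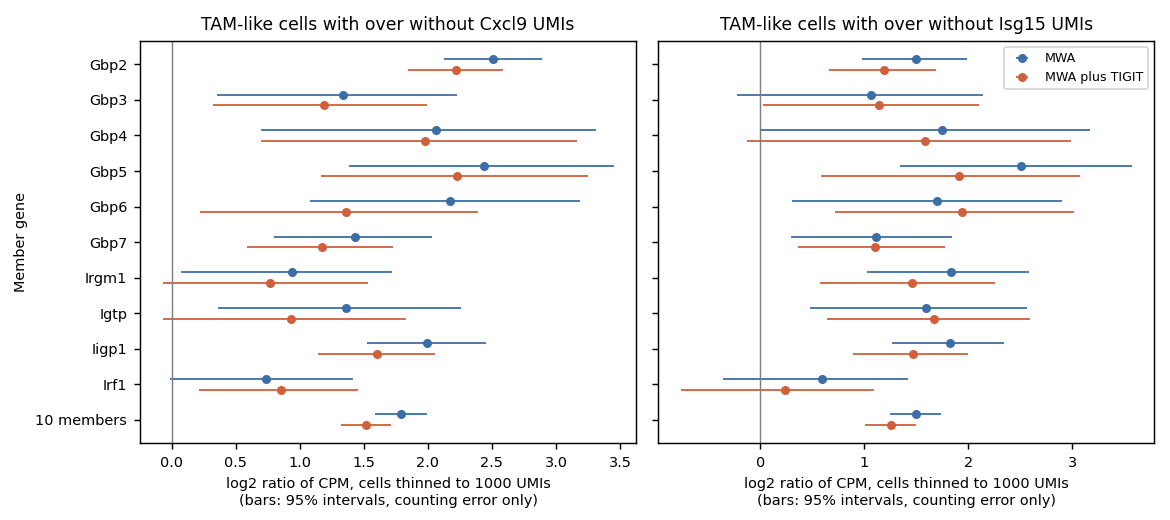
Ratios of member levels in TAM-like cells with over without a Cxcl9 UMI (left) and with over without an Isg15 UMI (right), on a log2 axis, from cells thinned to 1000 UMIs. Points are the MWA (blue) and MWA plus TIGIT (orange) libraries and bars are 95% intervals for counting error only. Gbp2 and Gbp5 lie farthest right beside Cxcl9, and the bars of Irf1 cross 0 beside Isg15.

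Between the libraries, no member in TAM-like cells differed by more than 0.12 on the log2 scale. The summed members were at 375 CPM without anti-TIGIT (95% Poisson interval, 367 to 383) and 385 CPM with it (378 to 392), and their log2 ratio was 0.03 (-0.01 to 0.08). A gene was counted as past the fold at a ratio of 1.5 in either direction with at least 20 UMIs over both libraries, and 0 of the 10 members were, against 3.1% of 12207 genes higher and 3.21% lower in the MWA plus TIGIT group. The members' log2 ratios ran from -0.09 for Irgm1 to 0.12 for Gbp3, while Cxcl9 was at 323 and 425 CPM. The sign of the sum depended on the cells and the scale. It was -0.01 when mitochondrial and ribosomal protein genes were left out of the totals, and -0.32 with 3 members past the fold in cells with at most 5000 UMIs.

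The near-equal TAM-like totals held clusters on opposite sides of 0, with the Gpr34 and Selenop cluster alone below it. The summed log2 ratio was 0.19 (0.08 to 0.30) in the interferon-led cluster and 0.16 (0.04 to 0.28) in the Arg1 and Zmynd15 cluster. In the Olr1 and Gm16104 cluster it was 0.01 (-0.08 to 0.10). In the Gpr34 and Selenop cluster all 10 members were lower in the MWA plus TIGIT group, where 44.4% of 10823 genes were lower by any amount, and the sum of 511 and 465 CPM gave a log2 ratio of -0.14 (-0.20 to -0.08). None was past the fold, against 3.17% of genes higher and 2.74% lower, and the lowest ratios were -0.34 for Igtp and -0.28 for Irgm1. In the Hspb1 and Hspa1b cluster the sum stood at 151 and 203 CPM (log2 ratio 0.43, 0.29 to 0.57), with 8 of 10 members higher, as were 59.2% of 9842 genes. Of the 10, 4 were past the fold upward and 0 downward, against 5.45% and 4.4% of genes, and the count was 1 in cells with at most 5000 UMIs and 2 without doublet removal. Iigp1 was at 20.1 and 33.5 CPM (log2 ratio 0.74, 0.37 to 1.11), Gbp7 at 11.6 and 18.8 CPM (0.70, 0.21 to 1.20), Irgm1 at 17.0 and 27.3 CPM (0.69, 0.29 to 1.1) and Igtp at 9.38 and 15 CPM (0.68, 0.13 to 1.24). In cells with at most 5000 UMIs Irgm1 turned to -0.26. Gbp5 (6.25 and 4.33 CPM, -0.53, -1.36 to 0.29) and Irf1 (29.2 and 25.8 CPM, -0.18, -0.53 to 0.17) had ratios below 0. The difference between the clusters was not tested, and the Gpr34 and Selenop cluster was not found again under 4 of the alternative settings and held 29 cells in the library with fewer when cells were limited to 5000 UMIs.

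Cycling TAM-like cells showed the members higher in the MWA plus TIGIT group. All 10 were higher by some amount, as were 60.1% of 11119 genes, with 3 past the fold upward and 0 downward against 3.55% and 2.67% of genes, and the summed log2 ratio was 0.36 (0.29 to 0.43). Without doublet removal 1 member was past the fold. Iigp1 was at 32.9 CPM (29.2 to 36.8) and 58.7 CPM (54.2 to 63.5), with 0.84 (0.64 to 1.04) as the log2 ratio. Gbp5 was at 9.54 and 16.1 CPM (0.75, 0.37 to 1.14) and Gbp6 at 8.21 and 12.9 CPM (0.65, 0.24 to 1.08). The Poisson intervals of the 2 libraries did not overlap for Iigp1, Gbp5 or Gbp6, nor for Gbp2, Gbp7 or Irf1, which were not past the fold. The share of all genes with such separate intervals is not given here. The members' median log2 ratio was 0.31 against 0.05 over all genes tested. The TAM-like to cycling TAM-like ratio of Iigp1 was 2.10 (1.86 to 2.39) without and 1.22 (1.12 to 1.34) with anti-TIGIT. The summed ratio stayed between 0.28 and 0.46 under 10 alternatives. Median depth was 11562 and 14158 UMIs per cell, and its part in these ratios was not tested.

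In monocyte-like cells the members summed to 331 and 401 CPM (log2 ratio 0.28, 0.16 to 0.40), with 9 of 10 higher, as were 55.2% of 9032 genes. Past the fold were 3 members upward and 0 downward, against 6.57% and 5.21% of 9032 genes. They were Gbp4 at 4.58 and 11.6 CPM (log2 ratio 1.34, 0.40 to 2.39), Gbp7 at 35.9 and 54.7 CPM (0.61, 0.25 to 0.97) and Iigp1 at 6.49 and 9.83 CPM (0.60, -0.26 to 1.51), the last from 17 and 39 UMIs with an interval that includes 0. Gbp2 was at 108.8 and 120.9 CPM (0.15, -0.06 to 0.37). Of the marker lists in these cells, the 8 TAM markers summed to 6654 and 8124 CPM, the 6 monocyte markers to 7081 and 6964 CPM, the 7 neutrophil markers to 129 and 161 CPM and the 6 T cell markers to 40.8 and 34.0 CPM, and their part in the ratios was not tested. The count past the fold was 0 and 1 at subcluster resolutions of 0.5 and 1.5 and 1 by gating and with TMM factors, and Gbp7 turned to -0.04 in cells with at most 5000 UMIs. DC-like cells, 136 and 94 in number, had 8 members with enough UMIs, of which 2 were past the fold upward and 1 downward against 13.9% and 8.46% of genes. These were Gbp7 at 14.6 and 29.9 CPM, Gbp5 at 18.7 and 33.8 CPM and Gbp4 at 30.2 and 18.2 CPM, of which the interval excluded 0 for Gbp7 alone (1.04, 0.02 to 2.11). Marker sums of the DC-like cells differed between the libraries, with 6 mature DC markers at 1209 and 2045 CPM, 6 cDC1 markers at 1259 and 926 CPM, 6 monocyte markers at 930.3 and 1581 CPM and 6 cycling markers at 329 and 108 CPM, and their part in these ratios was not tested. In neutrophil-like cells, with a median of 918 and 1112 UMIs per cell, 2 members could be compared and 0 were past the fold, against 11.9% of 1266 genes higher and 17.5% lower.

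In T-like cells most ratios were small. In CD8 T-like cells 0 of 10 members were past the fold, against 6.96% of 10264 genes higher and 3.36% lower, and the median log2 ratio of the members was 0.16 and that of all genes 0.13. Under 6 of the alternative settings 1 or 2 members were past the fold in these cells. Gbp7 (89.2 and 122.8 CPM, log2 ratio 0.46, 0.30 to 0.63), Irgm1 (34.4 and 48.5 CPM, 0.50, 0.23 to 0.77) and Gbp2 (32.4 and 44.0 CPM, 0.44, 0.17 to 0.72) were higher in the MWA plus TIGIT group, whereas Iigp1 was lower (18.1 and 12.5 CPM, -0.53, -0.98 to -0.09) and Irf1 was at 135 and 131 CPM (-0.04, -0.19 to 0.10). TMM scaling shifted log2 ratios by -0.11 in CD8 T-like, -0.10 in CD4 T-like, -0.11 in gamma-delta T-like, -0.13 in NK-like and -0.14 in cycling T-like cells, and with it the summed CD8 T-like ratio went from 0.15 to 0.04. The make-up of the CD8 T-like cells also differed, with 475 and 730 effector and 338 and 233 exhausted cells. By cluster the summed log2 ratio was -0.02 in effector, -0.11 in exhausted and -0.05 in stem CD8 T-like cells. It was 0.04 in the interferon-led cluster and 0.13 in the cells without a named state. The part of the cluster mix in the pooled ratio was not tested. Among effector CD8 T-like cells Iigp1 was the single member past the fold, downward, at 13.6 and 3.01 CPM from 18 and 7 UMIs (-2.18, -3.68 to -0.85), against 10.1% of 8109 genes higher and 5.72% lower. Treg-like cells also had 0 of 10 past the fold (7.86% of 8679 genes higher, 5.46% lower), with a summed log2 ratio of 0.09 (0.01 to 0.18), and cycling T-like cells 0 of 10 (8.46% higher, 3.24% lower). CD4 T-like cells had 1 upward and 0 downward (7.56% and 3.42% of genes), Gbp5 at 6.58 and 12.2 CPM from 21 and 35 UMIs (0.89, 0.07 to 1.74).

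Gamma-delta T-like cells had 3 of 8 members past the fold upward and 0 downward, against 12.2% and 5.9% of 7444 genes, and a summed log2 ratio of 0.40 (0.23 to 0.56). Iigp1 was at 9.0 and 25.4 CPM from 13 and 28 UMIs (1.5, 0.50 to 2.57), Igtp at 31.2 and 62.7 CPM (1.01, 0.45 to 1.58) and Gbp2 at 21.5 and 37.2 CPM (0.79, 0.09 to 1.52), and each interval excluded 0. These members were named for being past the fold, and the share of all genes with such intervals is not given here. Marker sums also differed in these cells, at 286 and 458 CPM for 4 CD4 T, 515 and 713 CPM for 6 stem-like T, 672 and 979 CPM for 6 effector T and 192 and 99.9 CPM for 6 cycling markers, beside 881 and 835 CPM for the 7 gamma-delta T markers, and their part in the ratios was not tested. Igtp overlaps Irgm2, which itself was at 4.85 and 13.6 CPM in these cells. NK-like cells, 168 and 117 in number, had 1 of 6 upward and 1 downward (11.8% and 7.51% of genes), Igtp at 12.9 and 25.9 CPM and Irgm1 at 27.0 and 13.0 CPM, both with intervals that include 0. The interval widths in both types go with 69 or fewer UMIs per library for each member named here.

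**Figure D5:**
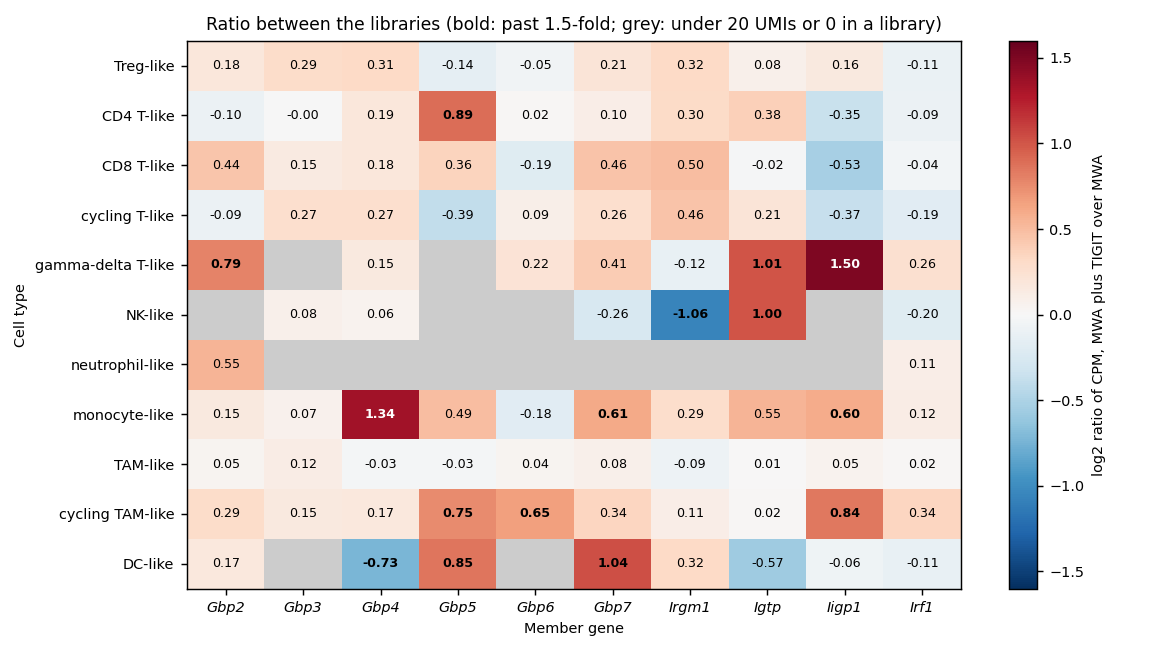
Log2 ratio of CPM, MWA plus TIGIT over MWA, for each member (columns) in each type (rows). Red is higher and blue lower in the MWA plus TIGIT group, bold values are past 1.5-fold, and grey cells had fewer than 20 UMIs or 0 in a library. The TAM-like row runs from -0.09 to 0.12, the cycling TAM-like row is positive throughout, and the highest value, 1.5, is Iigp1 in gamma-delta T-like cells.

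Other genes of the pathway were read against the members from lists of fixed membership. In cycling TAM-like cells 21 of the 22 type I interferon genes were higher and 5 were past the fold upward, with a median log2 ratio of 0.28 against 0.05 over all genes, and all 13 antigen presentation genes were higher by at most 0.22 with 0 past the fold. Of all genes in these cells 60.1% were higher and 3.55% were past the fold upward. Of 3 chemokine and checkpoint genes with enough UMIs in these cells 2 were past the fold, Cxcl9 at 288 and 442 CPM (0.62) and Cd274, which encodes the checkpoint ligand PD-L1, at 13.7 and 23.3 CPM (0.77). In monocyte-like cells 21 of 22 type I interferon genes were higher and 6 past the fold, with a median of 0.46 against 0.04 over all genes. Of all genes there, 55.2% were higher, and 6.57% were past the fold upward and 5.21% downward. In TAM-like cells, where 59.7% of all genes were higher, 14 of 22 were higher and 0 past the fold, and 12 of 13 antigen presentation genes were higher with 0 past the fold. Past the fold there were 3.1% of all genes upward and 3.21% downward. In Treg-like cells 18 of 21 type I interferon genes were higher (59.3% of all genes) and 4 past the fold, and in CD8 T-like cells 16 of 22 were higher (68.8% of all genes) with 0 past the fold upward and 1 downward. Upward past the fold were 7.86% of all genes in Treg-like and 6.96% in CD8 T-like cells, with 5.46% and 3.36% downward. In CD4 T-like cells 5 of 21 type I interferon genes were past the fold upward and 0 downward (7.56% and 3.42% of all genes). Their median log2 ratio there was 0.30 against 0.10 over all genes. In gamma-delta T-like cells 1 of 18 was upward and 1 downward (12.2% and 5.9% of all genes). Of the 10 other interferon-inducible GTPases 2 of 8 were past the fold upward in cycling TAM-like cells (3.55% of all genes), 1 of 5 in monocyte-like cells (6.57%) and 0 of 9 in TAM-like cells (3.1%). In gamma-delta T-like cells 3 of 7 were upward and 0 downward (12.2% and 5.9%). In CD8 T-like cells 1 of 9 was upward and 2 downward (6.96% and 3.36%). None was past the fold of 9 in Treg-like cells (7.86% and 5.46%) or of 7 in CD4 T-like cells (7.56% and 3.42%).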

How the data were processed

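CD45+ cells of non-ablated MC38 tumors were profiled in 1 library per group. The authors deposited raw UMI counts per gene and cell barcode, with no normalization; the labels name Cell Ranger 6.1.1 and build mm10, whereas the header of the deposited matrices names cellranger 4.0.0. All columns were matched to a library, leaving 0 unmatched.

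Barcodes with fewer than 200 genes (2 and 12) or over 10% mitochondrial UMIs (179 and 276) were removed, and 806 and 786 doublets were called against simulated doublets (0.8% per 1000 cells) and removed. The study's upper limit of 5000 UMIs was not applied, since 4351 and 3725 of the 9231 and 9127 kept cells lie at or under it, and is an alternative. Libraries were integrated with Seurat 5.3.0 (3000 features, 40 dimensions) and clustered at a resolution of 0.5, and T and NK or myeloid cells again at 1, with the members and the interferon lists left out of the features. Clusters were named from marker lists when at least 2 state markers, or 3 type I interferon genes for an interferon-led name, were among their top 10 genes by fold. These thresholds were set after a first clustering was seen, so shares of cells may differ from the study's. B-like, mast or basophil-like and unnamed clusters were not used, and types needed 50 cells in each library.

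Counts were summed by type and library in pandas 2.3.3 and NumPy 2.4.6, with scikit-learn 1.9.0 and SciPy 1.17.1 under Python 3.11.15. Levels carry exact Poisson 95% intervals and ratios exact conditional binomial 95% intervals; UMIs of a cell and cells of a library are not replicates, so both cover counting error only, and no p-value is given. A count of 0 was read as up to 3 counts. TMM factors came from edgeR 4.0.16 in R 4.3.3. The interval and fold calls were tested on simulated counts. All 10 members are named, and other genes come from 10 lists of the pathway, its relatives and type I interferon. The members and lists were chosen with earlier results of these data known. Gbp11, Gm12250, Cxcl11, Mx1 and Mx2 of the lists were not analysed here. Promoters come from RefSeq and gene positions from GENCODE.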

Additional observations from a re-analysis of the deposited data

Results flagged for a closer look

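In TAM-like cells the summed members differed between the libraries in opposite directions in 2 clusters. In the cluster led by Gpr34 and Selenop the log2 ratio of MWA plus TIGIT over MWA was -0.14, with all 10 members lower, and in the cluster led by Hspb1 and Hspa1b it was 0.43, with 8 of 10 members higher. These were picked out because the clusters lay on either side of 0 under the same contrast, as the only cluster below 0 and the cluster with the highest ratio. The interferon-led (0.19) and Arg1 and Zmynd15 (0.16) clusters were also above 0, and the Olr1 and Gm16104 cluster was at 0.01. With 1 library in each group the difference between the clusters was not tested.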

How the results depend on the processing

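No paired analysis was possible because each group holds 1 library. Of 189 values recomputed for the main comparisons 144 stayed within their counting interval or within 1.5 times the count, and those of the 5% mitochondrial limit, of no minimum above 1 UMI and of leaving out shared barcodes (chosen after seeing the data) all did. The others follow as log2 ratios of the summed members or counts of members past 1.5-fold, and their cause was not tested.

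In cells with at most 5000 UMIs the ratio between the libraries was 0.025 in CD8 T-like (1 past the fold), 0.46 in monocyte-like and -0.32 in TAM-like cells (3 past the fold), the ratio of Treg-like over CD8 T-like cells was 0.93 in the MWA group, that of TAM-like over CD8 T-like cells -0.32 and -0.66, that beside Cxcl9 2.11, and the share of TAM-like cells with 3 or more members 3.62% in the MWA group. There Gbp7 in monocyte-like cells (-0.042) and Irgm1 in the Hspb1 and Hspa1b cluster (-0.26) reversed. Without doublet removal the ratio was 0.12 in TAM-like and 0.29 in cycling TAM-like cells (1 past the fold), and TAM-like over CD8 T-like cells -0.37 and -0.43. With the interferon genes kept in the features it was 0.28 in cycling TAM-like cells, Treg-like over CD8 T-like cells 0.99 and 0.83, and TAM-like over CD8 T-like cells -0.66 in the MWA plus TIGIT group. At a resolution of 0.5, 1 member was past the fold in CD8 T-like and 0 in monocyte-like cells, and at 1.5, 1 in monocyte-like cells. With types gated on markers the ratio was 0.23 in CD8 T-like (2 past the fold), 0.0052 in Treg-like and 0.46 in cycling TAM-like cells, 1 member was past the fold in monocyte-like cells, and Treg-like over CD8 T-like cells was 1.32 in the MWA group. With TMM factors the CD8 T-like ratio was 0.035 (1 past the fold), with 1 past the fold in monocyte-like cells. Without mitochondrial and ribosomal protein genes it was 0.031 in CD8 T-like (1 past the fold) and -0.014 in TAM-like cells, Treg-like over CD8 T-like cells 0.85 and 0.86, and TAM-like over CD8 T-like cells -0.85 and -0.89. As a mean over cells the CD8 T-like ratio was 0.070 (1 past the fold), Treg-like over CD8 T-like cells 1.02 in the MWA group, and TAM-like over CD8 T-like cells -0.61 and -0.68. Thinned to 2000 UMIs, 5.68% and 5.53% of TAM-like cells held 3 or more members.

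The total UMIs of a type limit the NK-like, DC-like, gamma-delta T-like and neutrophil-like cells most, where 6, 8, 8 and 2 of the 10 members had 20 UMIs. The Gpr34 and Selenop cluster was not found under 4 alternatives (no doublet removal, interferon genes kept, resolution 1.5 and gating), and the Hspb1 and Hspa1b cluster not at 1.5 or by gating. Cycling TAM-like (41), Gpr34 and Selenop cluster (29) and DC-like (20) cells were too few at 5000 UMIs in the library with fewer, and gamma-delta T-like cells were not gated. Gbp6 counts are uncertain with respect to Gbp10, and how reads from their common bases were counted was not tested.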

Other observations

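Beyond the members, the genes of other interferon lists in Treg-like cells were read for biology not described above. Ifngr2 was at 16.0 and 8.28 CPM in the MWA and MWA plus TIGIT groups in these cells (log2 ratio -0.95), and at 20.7 and 12.2 CPM in CD4 T-like cells (-0.76), the 2 T-like types in which it was past 1.5-fold. Cxcl10, a chemokine gene of both interferon types, went down past 1.5-fold in gamma-delta T-like cells (49.2 and 16.3 CPM, log2 ratio -1.59) and cycling T-like cells (56.1 and 22.0 CPM, -1.35) while the members' sum there had log2 ratios of 0.40 and 0.08. In DC-like cells, whose mature DC and cDC1 markers differed between the libraries as given above, Cxcl9 was at 494 and 279 CPM (-0.82). These were picked after their values were seen, each rests on 1 library per group, and their cause was not tested.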
